A study of Mus musculus with 12 samples.

Results

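The genes described here act in DNA repair and in the checkpoint that watches over DNA replication. A list of 35 genes was matched to the arrays by gene symbol, and where several probe sets carried a symbol, the brightest one on average over the 12 arrays stood for the gene. In all, 33 of the 35 were read, out of 18193 genes with a symbol; Rbbp8 and Xrcc2 were not analysed here. Of the 33, 10 act in homologous recombination, 8 in the Fanconi anaemia pathway, 3 on broken DNA ends, 4 in base excision or mismatch repair, and 8 in the checkpoint or in tolerance of DNA damage. The study profiled mouse embryonic fibroblasts (MEFs) with Affymetrix MOE430 2.0 arrays, to ask how loss of the retinoblastoma family of proteins alters gene expression. The 4 groups, of 3 arrays each, were TKO-Ras MEFs, which carry deletions of Rb1, p107 and p130 together with Ras G12D, TKO MEFs with the same 3 deletions, Rb1KO MEFs with a deletion of Rb1, and wild-type (WT) MEFs. All cells were harvested while growing exponentially and without treatment. The labels do not say how Ras G12D was expressed, how old the embryos were, or whether a group holds more than 1 cell line, and the design text speaks of triplicates from each line. The p-values below therefore measure the spread between these arrays, which may be smaller than that between embryos.

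The retinoblastoma protein and its relatives p107 (gene Rbl1) and p130 (gene Rbl2) bind E2F transcription factors and repress genes needed for S phase. Many DNA repair genes are among the genes E2F factors bind, and replication itself can make the lesions they mend. In homologous recombination, a broken chromosome is resected and copied from its sister. The Fanconi anaemia proteins unhook crosslinks between strands, and the kinases ATR and CHK1 slow the cycle when replication forks stall.

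All values are log2 signals, each array's brightness summarised over the probes of a set, as the authors deposited them. Differences between groups are on that log2 scale, given with the standard error (SE), so that a difference of 1 is a 2-fold change. A difference was called where its p from limma, adjusted over 45037 probe sets, was under 0.05. A signal at or below 5.13, the 95th percentile of 44 probe sets for olfactory receptor genes, was taken as background.

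The deleted genes were read first. In TKO MEFs Rb1 was lower than in WT by a log2 difference of -1.36, Rbl2 by -2.27, and Rbl1 lay at background, at least 8.65-fold lower. In the arrays labelled Rb1KO, Rb1 was lower than in WT by -0.92 and Rbl1 differed by 0.49 (adjusted p = 0.203). Rbl2 also lay at background in all 3 arrays labelled Rb1KO, at 4.47, 3.80 and 4.27, against 7.54, 7.72 and 7.90 in WT, at least 6.01-fold lower. The label of that group names no change of p130, so a comparison with Rb1KO MEFs may not be one with loss of Rb1 alone. Between the 2 knockout groups, Rbl1 was at least 12.2-fold lower in TKO than in Rb1KO. Rbl2, at 5.37, 5.27 and 5.71 in TKO, was instead at least 1.25-fold higher there than in Rb1KO (adjusted p = 0.00411). Rb1 did not pass between them (-0.44 in TKO over Rb1KO, adjusted p = 0.0955). Of 10 fibroblast markers, 8 were above background in TKO-Ras, 9 in TKO, 10 in Rb1KO and 9 in WT. Thy1, a defining one, was at background in TKO-Ras and TKO, and Lum in TKO-Ras. The summed linear level of the 10 markers was 48187 to 50100 in TKO-Ras, 69436 to 76669 in TKO, 54049 to 58312 in Rb1KO and 95330 to 110171 in WT. Of 8 leukocyte markers 3 to 5 were above background in a group, and of 6 endothelial markers 2, while Ptprc, Adgre1, Itgam, Pecam1, Cdh5, Tek and Tie1 were at background in every group. Neural and glial markers summed to 715 to 900 in TKO-Ras, 570 to 708 in TKO, 840 to 960 in Rb1KO and 2115 to 2266 in WT. Epithelial markers summed to 1402 to 2196 in TKO-Ras, 498 to 764 in TKO, 451 to 568 in Rb1KO and 355 to 768 in WT. Of these 6 markers 4 were above background in every group, while Cdh1 and Krt18 were at background. The leukocyte markers summed to 547 to 654 in TKO-Ras, 451 to 502 in TKO, 365 to 398 in Rb1KO and 349 to 362 in WT. Muscle markers summed to 241 to 307 in TKO-Ras, 271 to 307 in TKO, 349 to 500 in Rb1KO and 243 to 1065 in WT. For adipocyte markers the sums were 335 to 442 in TKO-Ras, 985 to 2360 in TKO, 519 to 789 in Rb1KO and 589 to 1361 in WT. The part of other cell types in the results below was not tested. WT replicate 3 stood apart, since pairs of WT arrays correlated at 0.969 to 0.995 over all probe sets, against 0.990 to 0.996 within the other groups. It gave the lowest WT value for 23 of the 33 repair genes (69.7%), and for 37.4% of all genes.

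RefSeq promoter windows, 250 bases before to 50 bases after a gene's start (GRCm38.p6), were on hand for 27 of the 35 genes. They were searched on both strands for the E2F motif, taken as the words TTTCCCGC, TTTCGCGC, TTTGCCGC and TTTGGCGC. A word was found in the windows of 7 of the 27 genes (25.9%), against 2.6% of the 27025 genes with a window. These 7 sites are shown because E2F factors are what the deleted proteins bind. Each is given in the direction of its gene, with the word, or its reverse complement, in capitals.
Clspn, 22 to 29 bases after the start, chr4:126556990-126557019, plus strand: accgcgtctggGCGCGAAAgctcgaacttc
Msh6, 16 to 23 bases after the start, chr17:87975054-87975083, plus strand: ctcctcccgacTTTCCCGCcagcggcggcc
Bard1, 209 to 202 bases before the start, chr1:71103163-71103192, minus strand: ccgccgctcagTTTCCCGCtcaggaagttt
Topbp1, 129 to 122 bases before the start, chr9:103305187-103305216, plus strand: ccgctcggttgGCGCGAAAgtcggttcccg
Brca2, 168 to 161 bases before the start, chr5:150522442-150522471, plus strand: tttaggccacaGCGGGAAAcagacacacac
Chek2, 152 to 145 bases before the start, chr5:110839820-110839849, plus strand: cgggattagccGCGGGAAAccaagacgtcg
Fancg, 52 to 45 bases before the start, chr4:43010335-43010364, minus strand: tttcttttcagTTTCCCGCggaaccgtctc
The first 6 of these genes were higher in TKO than in WT MEFs and Fancg did not pass the test. Most genes with a window were called higher, with or without a word. Of the 27, 22 were called higher, 6 of them with a word, and 5 did not pass, 1 of them with a word. CCAAT, the word bound by NF-Y, was in the windows of 17 of the 27 genes (63.0%), against 41.1% of all genes, and the CHR word TTTGAA only in that of Bard1 (3.7%), against 20.2%. A word in a window is a description of its letters, and base composition was not matched between these genes and the rest.

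TKO MEFs had more RNA of most of these repair genes than WT MEFs. Of the 33 genes, 28 were higher, none was lower and 5 did not pass the test. Over all genes 13.6% were called higher and 9.9% lower. At least a 2-fold rise was called for 19 of the 33, against 4.38% of all genes. In 31 of the 33 the 3 TKO arrays all lay above the 3 WT arrays, which held for 22.8% of all genes. The median log2 difference was 1.31 for the 33 genes and 0.05 for all genes. Among the 12629 genes above background on at least 3 arrays, 18.7% were called higher. Since a bulk sample averages over cells, more cells in S phase and more RNA per cell cannot be told apart. All 9 proliferation markers read were also higher in TKO than in WT, with a median difference of 1.51, and Mki67 and Pcna differed by 1.14 and 1.44. Their summed linear level was 37687 to 42357 in TKO and 11449 to 16589 in WT, and the part of proliferation in the result was not tested.

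**Figure D1:**
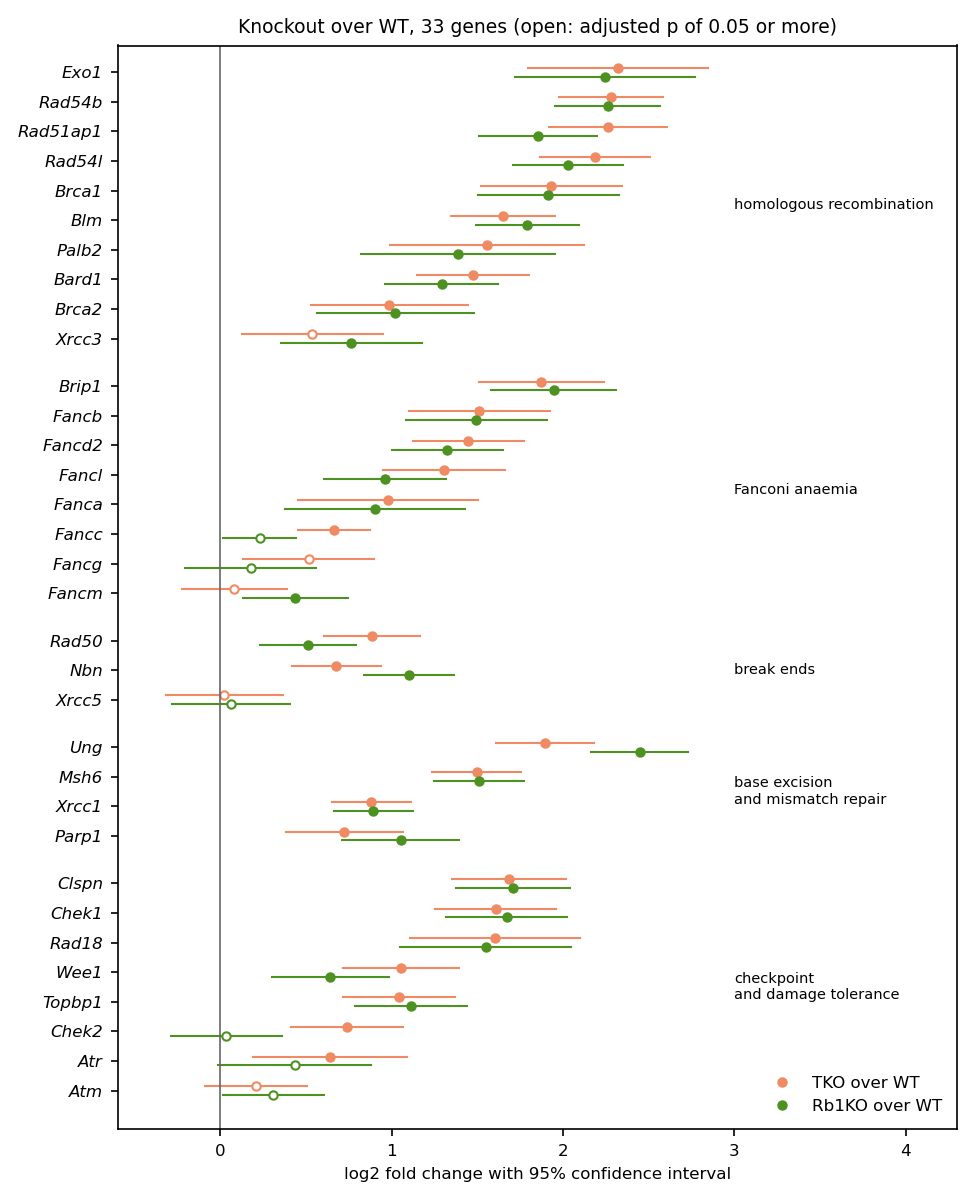
Log2 difference from WT MEFs for each of the 33 genes, grouped by pathway, with TKO above Rb1KO for each gene. Points are the fitted differences, open where the test was not passed, and lines their 95% confidence intervals. Values run between 0.02 and 2.32 for TKO, and Bard1 is drawn at its measured difference although WT lay at background.

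The homologous recombination genes showed the highest median of the 5 groups, with a median difference of 1.79 in TKO over WT and 9 of 10 called higher. Brca1, a scaffold that directs resected ends to recombination, had log2 signals of 9.34, 9.14 and 9.71 in TKO against 7.62, 7.76 and 7.02 in WT. The groups did not overlap, and the difference was 1.93 ± 0.19 (SE; adjusted p = 4.05e-05). Bard1, the partner of BRCA1 in its ubiquitin ligase, stood at 6.42, 6.10 and 6.05 in TKO against 4.60, 4.95 and 4.59 in WT. Since every WT array was at background, Bard1 was at least 2.08-fold higher in TKO (adjusted p = 5.38e-05). Exo1, a nuclease that resects broken ends, had 9.69, 9.66 and 9.63 in TKO against 8.0, 7.32 and 6.70 in WT. This was the largest difference among the 33 genes, 2.32 ± 0.24, or 5.0-fold (adjusted p = 5.79e-05), although the WT arrays spread over more than a log2 unit.

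Genes for later steps of recombination also rose. Rad51ap1, which stimulates the pairing of strands, gave 10.11, 10.13 and 10.21 in TKO against 8.26, 7.84 and 7.57 in WT, a difference of 2.26 ± 0.16 (adjusted p = 3.95e-06). The translocases Rad54l and Rad54b differed by 2.19 ± 0.15 and 2.28 ± 0.14, with Rad54b at 7.54, 7.43 and 7.71 in TKO against 5.40, 5.48 and 4.97 in WT. Blm, the helicase mutated in Bloom syndrome, differed by 1.65 ± 0.14 (adjusted p = 1.44e-05). Palb2, which joins BRCA1 to BRCA2, had 7.45, 7.32 and 7.55 in TKO against 6.20, 6.36 and 5.09 in WT, a difference of 1.56 ± 0.26 (adjusted p = 0.00138). WT replicate 3 lay far below the other WT arrays for this gene, and the standard deviation of its WT values, 0.69, was the highest among the 33 genes in any group. Brca2, a tumour suppressor needed for strand invasion, was higher by 0.99 ± 0.21 (adjusted p = 0.00634), with TKO between 7.87 and 8.63 and WT between 6.97 and 7.30. Xrcc3, which acts in strand exchange, was at 6.16, 6.07 and 6.51 in TKO against 5.97, 5.28 and 5.88 in WT, and its difference of 0.54 missed the threshold (adjusted p = 0.0688), though it passed without WT replicate 1 (0.67, adjusted p = 0.0476).

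In the Fanconi anaemia group 6 of 8 genes were higher in TKO than in WT, with a median difference of 1.14. Brip1, a helicase that binds BRCA1, had the largest, with 7.21, 7.05 and 7.69 in TKO against 5.55, 5.62 and 5.15 in WT, or 1.87 ± 0.17 (adjusted p = 2.2e-05). Fancd2, which is ubiquitinated when the pathway is switched on, stood at 7.45, 7.16 and 7.64 in TKO against 6.08, 6.10 and 5.73 in WT, a difference of 1.45 ± 0.15 (adjusted p = 5.53e-05). Over its 4 probe sets, of which 2 were called, the differences ran from 0.17 to 1.45. Fancl, the ubiquitin ligase for FANCD2, differed by 1.31 ± 0.16, but by -0.05 on its other probe set, which was not called. Of the core complex genes, Fancb and Fanca differed by 1.51 ± 0.19 and 0.98 ± 0.24, and Fanca did not pass without TKO replicate 3 (0.82, adjusted p = 0.0515). The other probe sets of Fancb and Fanca differed by 0.30 and 0.34 and were not called. Fancc, also of the core complex, had 7.48, 7.53 and 7.31 in TKO against 6.75, 6.78 and 6.80 in WT, a smaller difference of 0.66 ± 0.10 (adjusted p = 6.17e-04). With all 3 of its probe sets averaged, Fancc differed by 0.19 and did not pass (adjusted p = 0.131). The remaining members of the group did not pass. Fancg was at 6.21, 5.88 and 6.69 in TKO against 5.71, 5.77 and 5.75 in WT, without overlap, and differed by 0.52 (adjusted p = 0.0610), or by 0.71 without TKO replicate 2 (adjusted p = 0.0128). Fancm, which anchors the core complex on DNA, was at 7.02, 6.88 and 6.84 in TKO against 6.97, 6.93 and 6.59 in WT, overlapping ranges that differed by 0.08 (95% interval -0.22 to 0.39).

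Of the genes that act on broken ends, Rad50 and Nbn encode subunits of the MRE11 complex, which senses breaks, and Xrcc5 encodes KU80, which caps ends for joining. Rad50 was higher in TKO by 0.89 ± 0.13 (adjusted p = 5.66e-04), with TKO between 9.08 and 9.46 and WT between 8.08 and 8.49. Its other probe set differed by 0.22 and was not called. Nbn had 9.54, 9.49 and 9.23 in TKO against 8.82, 8.88 and 8.53 in WT, a difference of 0.68 ± 0.12 (adjusted p = 0.00205). Xrcc5 stood at 8.59, 8.28 and 8.55 in TKO against 8.24, 8.30 and 8.81 in WT, with overlap and a difference of 0.02 (95% interval -0.32 to 0.37). Here WT replicate 3 was the highest of the 6 arrays.

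All 4 genes of base excision and mismatch repair were higher in TKO. Ung, the glycosylase that removes uracil from DNA, had 8.27, 8.45 and 8.32 in TKO against 6.75, 6.30 and 6.32 in WT, a difference of 1.89 ± 0.13, or 3.72-fold (adjusted p = 3.62e-06). Msh6, which recognises mismatches, stood at 10.17, 10.23 and 10.36 in TKO against 8.85, 8.74 and 8.69 in WT, a difference of 1.50 ± 0.12 (adjusted p = 9.89e-06). Xrcc1, a scaffold of single-strand break repair, and Parp1, which marks such breaks with poly(ADP-ribose), differed by less, 0.88 ± 0.11 and 0.72 ± 0.16. For both genes every TKO array lay above every WT array.

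Among the 8 genes of the checkpoint and of damage tolerance 7 were higher in TKO, with a median difference of 1.05. Clspn, which brings CHK1 to ATR, had 9.38, 9.42 and 9.41 in TKO against 7.89, 7.92 and 7.34 in WT, a difference of 1.68 ± 0.15 (adjusted p = 2.33e-05). Chek1, the kinase CHK1 itself, was at 9.59, 9.56 and 9.59 in TKO against 8.19, 7.81 and 7.92 in WT, a difference of 1.61 ± 0.16 (adjusted p = 5.03e-05). The 3 TKO arrays lay within 0.1 of each other for both genes. Rad18, a ubiquitin ligase for PCNA in the bypass of lesions, differed by 1.60 ± 0.23. Wee1, which holds CDK1 inactive, and Topbp1, the activator of ATR, differed by 1.05 ± 0.16 and 1.04 ± 0.15. The apical kinases Atr and Atm had the smallest differences of the 8. Atr stood at 8.57, 8.45 and 8.68 in TKO against 8.20, 8.25 and 7.34 in WT, a difference of 0.64 ± 0.20 that barely passed (adjusted p = 0.0481). Without WT replicate 3, the low one, the difference was 0.34 and did not pass (adjusted p = 0.0650), and the call was also lost without any 1 of the TKO arrays, with differences of 0.58 to 0.70. Atm, the kinase that answers breaks, gave 8.27, 8.31 and 8.65 in TKO against 8.17, 8.18 and 8.24 in WT, a difference of 0.21 that did not pass (adjusted p = 0.334), though the arrays did not overlap. Chek2, the kinase downstream of ATM, had 8.09, 8.05 and 8.40 in TKO against 7.33, 7.53 and 7.45 in WT, a difference of 0.74 ± 0.15 (adjusted p = 0.00459).

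**Figure D2:**
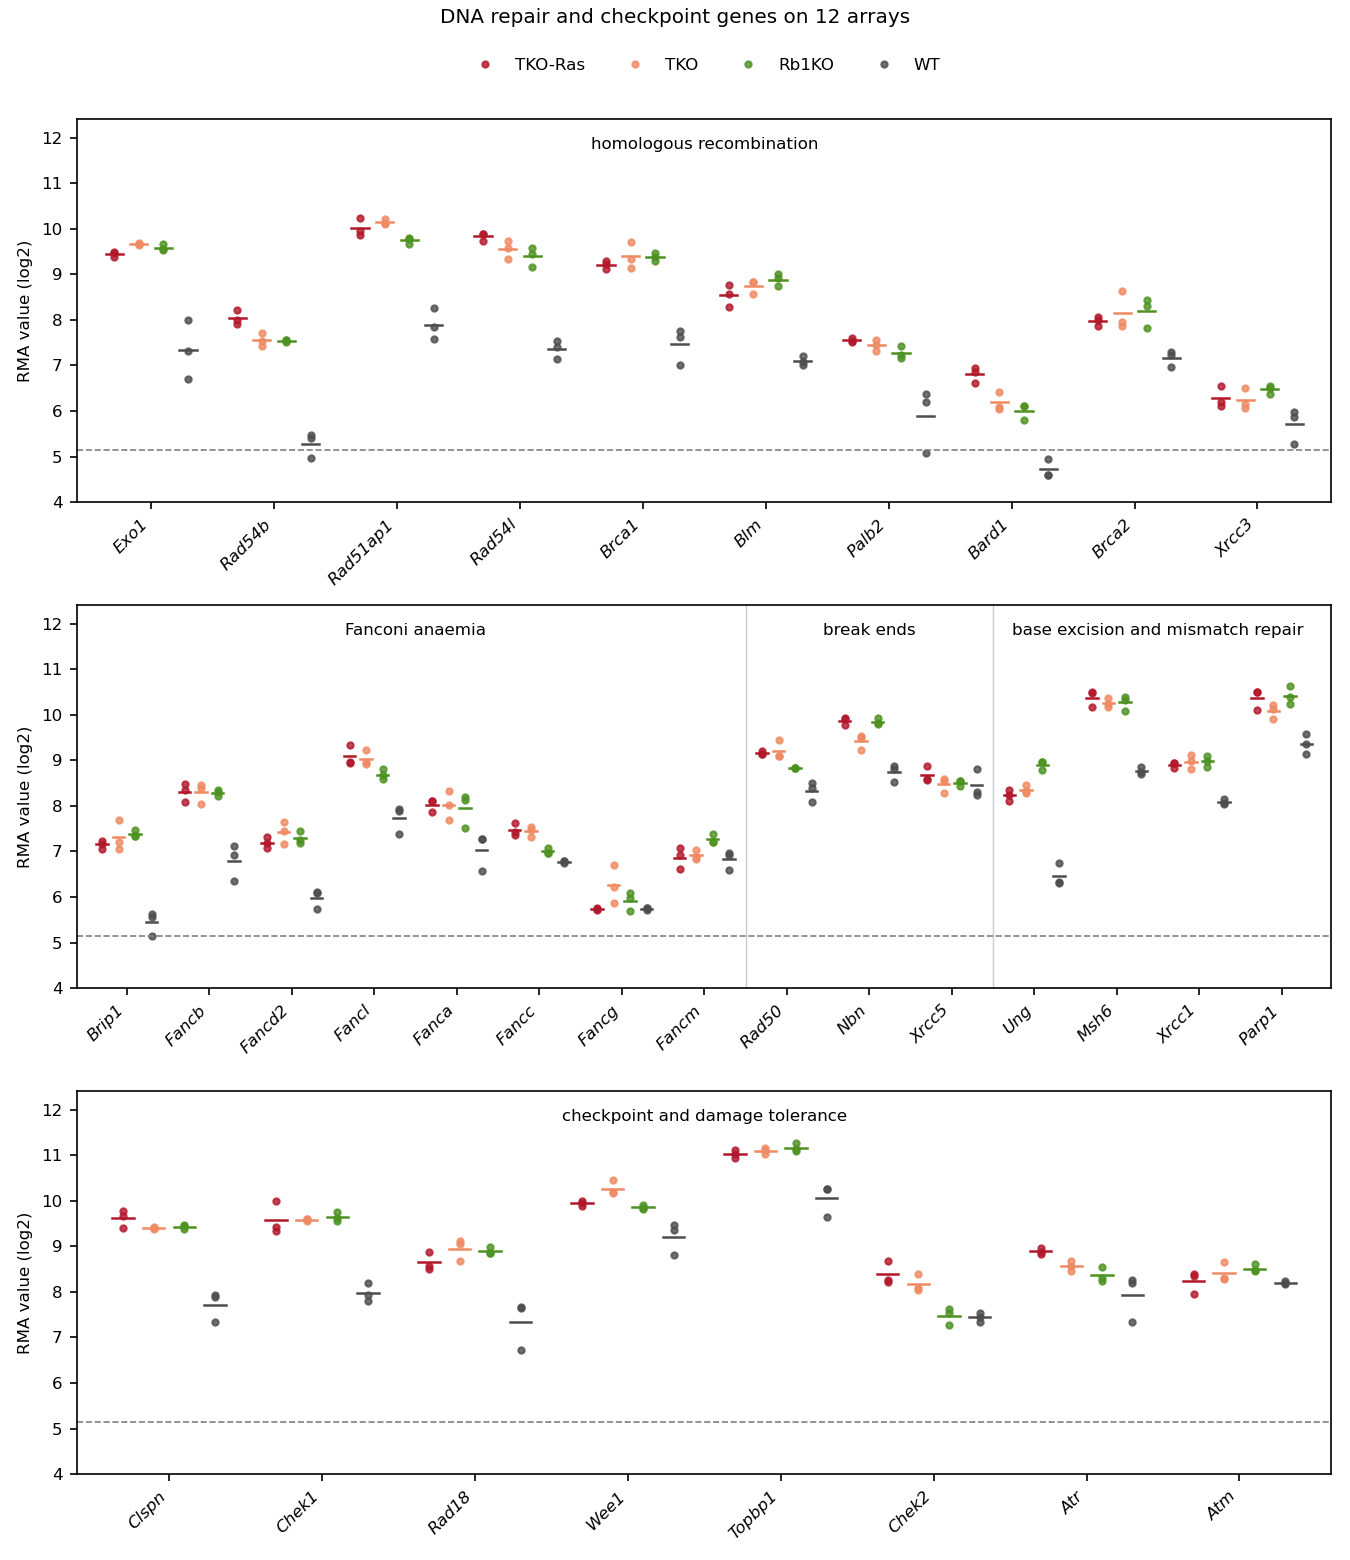
Log2 signal of the 33 genes on each of the 12 arrays, by group, with TKO-Ras, TKO, Rb1KO and WT from left to right for each gene. Points are arrays, short lines the group means and the dashed line the background level of 5.13. Most genes sit at like levels in the 3 mutant groups and lower in WT, whereas Chek2 and Fancc in Rb1KO lie closer to WT.

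Rb1KO MEFs were set against the same WT arrays, so the comparisons with WT are not independent of each other. In Rb1KO 27 of the 33 genes were higher than in WT, none was lower and 6 did not pass. Over all genes 15.6% were called higher and 12.3% lower. A rise of at least 2-fold was called for 20 of the 33, against 4.77% of all genes, and in 29 every Rb1KO array lay above every WT array, against 26.8% of all genes. The median difference was 1.11 for the 33 genes and 0.08 for all genes. The 9 proliferation markers were all higher in Rb1KO as well, with a median of 1.53, and their part in the result was not tested.

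All 10 homologous recombination genes were higher in Rb1KO than in WT, with a median difference of 1.82. Brca1 had 9.46, 9.29 and 9.39 in Rb1KO, a difference of 1.92 ± 0.19 (adjusted p = 3.45e-05), and Exo1 had 9.56, 9.67 and 9.53, a difference of 2.25 ± 0.24. Bard1, at 6.12, 5.79 and 6.11 in Rb1KO, was at least 1.83-fold higher than in WT, where it lay at background. Xrcc3, at 6.5, 6.36 and 6.55 in Rb1KO, passed here with 0.76 ± 0.19 (adjusted p = 0.0121). In the Fanconi anaemia group 6 of 8 were called, Brip1 by 1.95 ± 0.17 and Fancm by 0.44 ± 0.14 (adjusted p = 0.0421). The Fancm call was lost without any 1 of the Rb1KO arrays or without WT replicate 2 or 3, and that of Fanca, at 0.91, without Rb1KO replicate 1 or 3. Fancc and Fancg, at 0.23 and 0.18, did not pass.

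Ung had the largest difference of the 33 genes in Rb1KO, at 8.96, 8.78 and 8.97 against 6.75, 6.30 and 6.32 in WT, or 2.45 ± 0.13 and 5.45-fold (adjusted p = 5.55e-07). The other 3 genes of base excision and mismatch repair were higher too, Msh6 by 1.51, Parp1 by 1.05 and Xrcc1 by 0.89. Nbn differed by 1.10 ± 0.12 and Rad50 by 0.51 ± 0.13, whereas Xrcc5 differed by 0.06 and did not pass. In the checkpoint group 5 of 8 were called, namely Clspn, Chek1, Rad18, Topbp1 and Wee1, by 0.64 to 1.71. The 3 kinases Atr, Atm and Chek2 did not pass, at 0.43, 0.31 and 0.04. Chek2 stood at 7.62, 7.27 and 7.53 in Rb1KO against 7.33, 7.53 and 7.45 in WT, with full overlap (95% interval -0.29 to 0.36).

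The direct comparison of TKO with Rb1KO tests whether the knockout groups differed from each other. The WT arrays enter it only through the estimate of the spread, which all 12 arrays share. Over all genes 5.92% were higher and 3.63% lower in TKO. Of the 33 repair genes, 2 were higher, 1 was lower and 30 did not pass, shares of 6.06% and 3.03% that were near those of all genes. The median difference was 0.02 for the 33 genes and -0.03 for all genes. TKO arrays lay wholly above Rb1KO arrays for 6 genes and wholly below for 4, against 16.3% and 17.9% of all genes. None of the 9 proliferation markers passed.

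Chek2 was higher in TKO, at 8.09, 8.05 and 8.40 against 7.62, 7.27 and 7.53 in Rb1KO, by 0.71 ± 0.15, or 1.63-fold (adjusted p = 0.0141). Its lowest TKO array lay above its highest Rb1KO array. Fancc was higher in TKO, at 7.48, 7.53 and 7.31 against 7.06, 6.97 and 6.97 in Rb1KO, by 0.43 ± 0.10 (adjusted p = 0.0187). It was called on this probe set only, and with all its probe sets averaged the difference was 0.06 (adjusted p = 0.751). Ung was lower in TKO, at 8.27, 8.45 and 8.32 against 8.96, 8.78 and 8.97 in Rb1KO, by -0.55 ± 0.13 (adjusted p = 0.0249), while both groups lay above WT. Each of the 3 calls was lost when some single arrays were left out, for Chek2 TKO replicate 3 or Rb1KO replicate 2, for Fancc TKO replicate 1 or 2 or Rb1KO replicate 2 or 3, and for Ung TKO replicate 1 or 3 or Rb1KO replicate 1 or 3. Nbn came next, at 9.54, 9.49 and 9.23 in TKO against 9.92, 9.82 and 9.79 in Rb1KO, and its difference of -0.42 missed the threshold (adjusted p = 0.0561). The 5 genes with the largest rises in TKO over WT did not pass between the knockouts. Exo1 differed by 0.08 (95% interval -0.45 to 0.60), Rad54b by 0.02 (-0.29 to 0.32), Rad54l by 0.16 (-0.17 to 0.48) and Brca1 by 0.02 (-0.40 to 0.43). Rad51ap1 differed by 0.41 (0.06 to 0.75; adjusted p = 0.166), with every TKO array above every Rb1KO array.

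**Figure D3:**
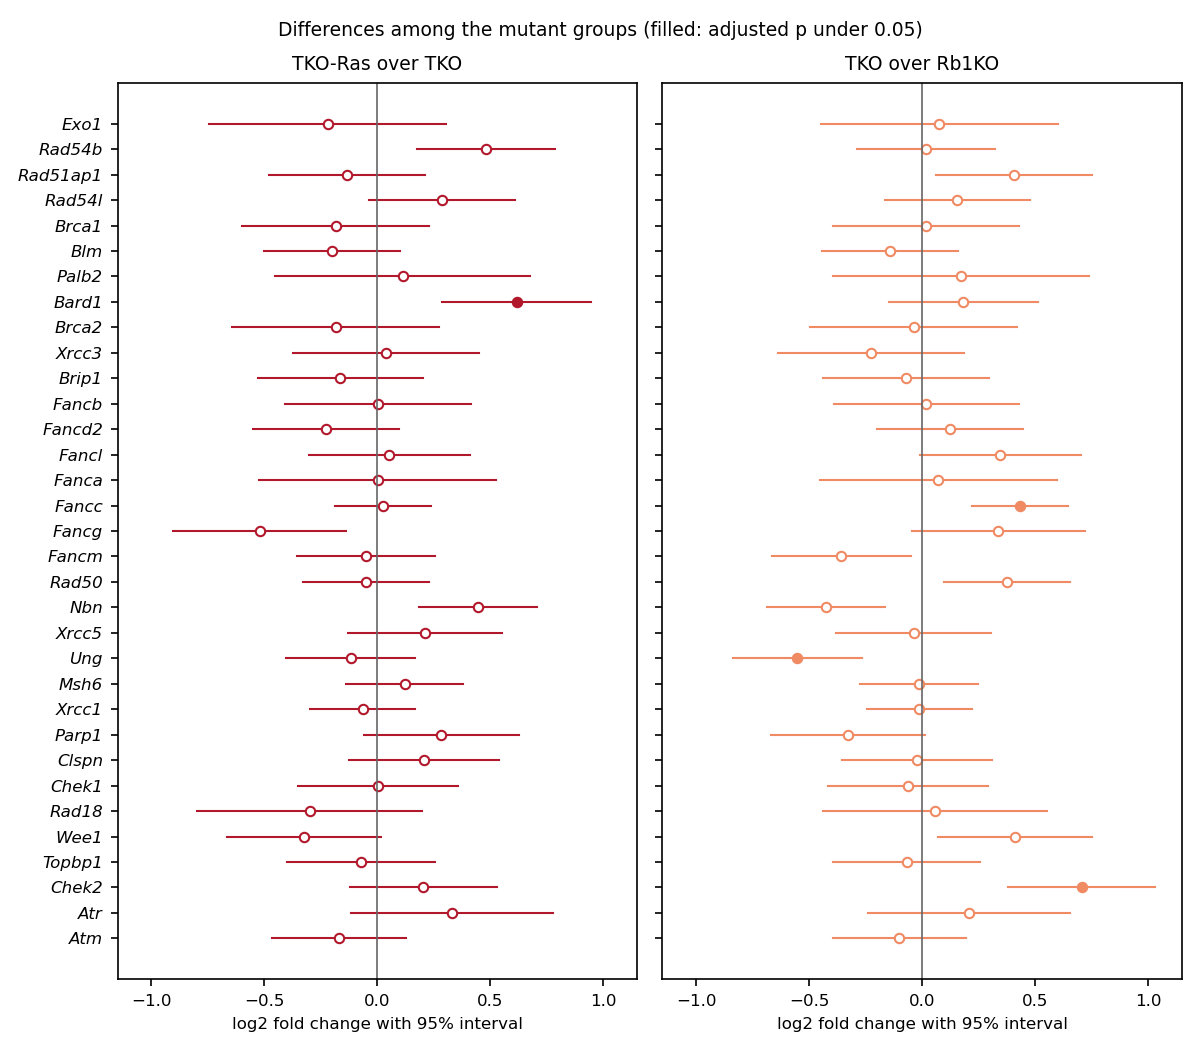
Log2 differences between mutant groups for the 33 genes, TKO-Ras over TKO and TKO over Rb1KO, with 95% confidence intervals. Filled points passed the test. Most intervals cover 0, and the called genes are Bard1 in the first comparison and Chek2, Fancc and Ung in the other.

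TKO-Ras MEFs, which carry Ras G12D, were compared with TKO MEFs. With the lines behind each group not given, a difference of Ras G12D and one between lines cannot be told apart. Of the 33 genes, 1 was higher and none was lower, against 3.19% and 4.17% of all genes. The median difference was 0.00 for the 33 genes and 0.04 for all genes. TKO-Ras arrays lay wholly above TKO arrays for 5 of the genes and wholly below for 3, against 17.6% and 13.7% of all genes. The gene called was Bard1, at 6.85, 6.95 and 6.62 in TKO-Ras against 6.42, 6.10 and 6.05 in TKO, by 0.62 ± 0.15, or 1.53-fold (adjusted p = 0.0350). That call was lost without TKO-Ras replicate 1 or 2, or without TKO replicate 2 or 3. Brca1, its partner, had 9.29, 9.24 and 9.12 in TKO-Ras against 9.34, 9.14 and 9.71 in TKO, a difference of -0.19 (adjusted p = 0.661).

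Rad54b had 8.0, 8.22 and 7.92 in TKO-Ras against 7.54, 7.43 and 7.71 in TKO, a difference of 0.48 (adjusted p = 0.0721). Nbn had 9.92, 9.77 and 9.91 in TKO-Ras against 9.54, 9.49 and 9.23 in TKO, a difference of 0.45 (adjusted p = 0.0536). Both missed the threshold although the groups did not overlap. Fancg had 5.71, 5.76 and 5.74 in TKO-Ras against 6.21, 5.88 and 6.69 in TKO, a difference of -0.52 (adjusted p = 0.119). Its TKO-Ras arrays were at the WT level of 5.71 to 5.77. The differences of the other 29 genes lay between -0.32 and 0.33.

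The order of levels among replicates was not even. Within TKO, replicate 3 was the highest array for 22 of the 33 genes, against 32.3% of all genes, and within Rb1KO, replicate 2 was the lowest for 24 of the 33, against 36.8% of all genes. The median standard deviation of the 33 genes was 0.14 in TKO-Ras, 0.16 in TKO, 0.10 in Rb1KO and 0.25 in WT. Without WT replicate 3, 27 of the 33 genes were higher in TKO than in WT, beside 14.4% of all genes, and 26 in Rb1KO, beside 15.9%, none was lower in either, and the medians were 1.13 and 0.996.

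Other probe sets of the same genes gave a second reading. The 33 genes had 73 probe sets, and 21 genes had more than 1. Of the 40 probe sets not used above, 20 were called higher in TKO than in WT and none was lower, beside 10.5% and 9.01% of all probe sets. For Rad51ap1 the differences ran from 1.96 to 2.47, whereas for Chek1 they ran from 0.29 to 2.51, for Brca1 from -0.01 to 1.93, for Rad18 from -0.03 to 1.91 and for Fancc from -0.21 to 0.66. Those of Rad54l ran from 0.08 to 2.19 and those of Parp1 from 0.02 to 0.77. The second probe set of Xrcc3 was called, with a difference of 0.99 (adjusted p = 8.64e-05). In TKO over Rb1KO 3 of the unused probe sets passed, of Atm at 0.48, Parp1 at -0.56 and Xrcc3 at -0.46, while the ones used for these genes did not. Over all probe sets 4.19% were higher and 2.99% lower in that comparison.

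The wider pathways were read from lists of 112 other genes, of which 103 were measured. In TKO over WT 52 were higher, 2 were lower and 49 did not pass, with a median of 0.49, beside 13.6% and 9.9% called over all genes. In homologous recombination 17 of 25 were higher, with a median of 0.88. Psmc3ip, which promotes strand exchange, was at 9.55 to 9.84 in TKO against 6.73 to 7.34 in WT, and differed by 2.54 ± 0.18. The ATPase Fignl1 differed by 2.22 ± 0.13, and the helicase Recql4 by 1.99 ± 0.15. In the Fanconi anaemia pathway 6 of 10 were higher, with Ube2t, the conjugating enzyme for FANCD2, at 1.66, Fanci, the partner of FANCD2, at 1.57 and Fancf, of the core complex, at 1.47. Among genes for broken ends 7 of 14 were higher, led by Xrcc6, which encodes KU70, at 1.54, while its partner Xrcc5 stood at 0.02. Whether Xrcc6 and Xrcc5 differ in their response was not tested. H2afx, the histone variant phosphorylated at breaks, and Mdc1, which binds it, differed by 1.40 and 1.02.

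In base excision and mismatch repair 11 of 18 were higher, including the glycosylase Neil3 at 1.72, Parp2 at 1.0 and the mismatch sensor Msh3 at 0.99. Of the checkpoint and tolerance genes 9 of 25 were higher and none was lower, among them Timeless, which steadies replication forks, at 1.81, the phosphatase Cdc25b at 1.67 and Etaa1, an activator of ATR, at 1.66. Nucleotide excision repair, which cuts out bulky lesions and has no gene among the 33, had 2 higher, 2 lower and 7 not passed of 11, and a median of 0.09. Ddb1, a damage sensor, was at 11.30 to 11.51 in TKO against 11.96 to 12.11 in WT, a difference of -0.64 ± 0.12 (adjusted p = 0.00252). Xpc, another sensor, differed by -0.53 ± 0.15 (adjusted p = 0.0272), a call lost without TKO replicate 1 or 2 or WT replicate 1 or 3. Ercc8, of transcription-coupled repair, differed by 0.87 ± 0.14, but by 0.28 (adjusted p = 0.125) on its probe set whose name carries no suffix. Whether nucleotide excision repair differs from the other pathways was not tested. In Rb1KO over WT 53 of the 103 genes were higher and 5 were lower, beside 15.6% and 12.3% of all genes. In TKO over Rb1KO 4 were higher and 2 lower, beside 5.92% and 3.63%, and in TKO-Ras over TKO 1 was higher and 1 lower, beside 3.19% and 4.17%. Those last 4 counts were below the shares over all genes.

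**Figure D4:**
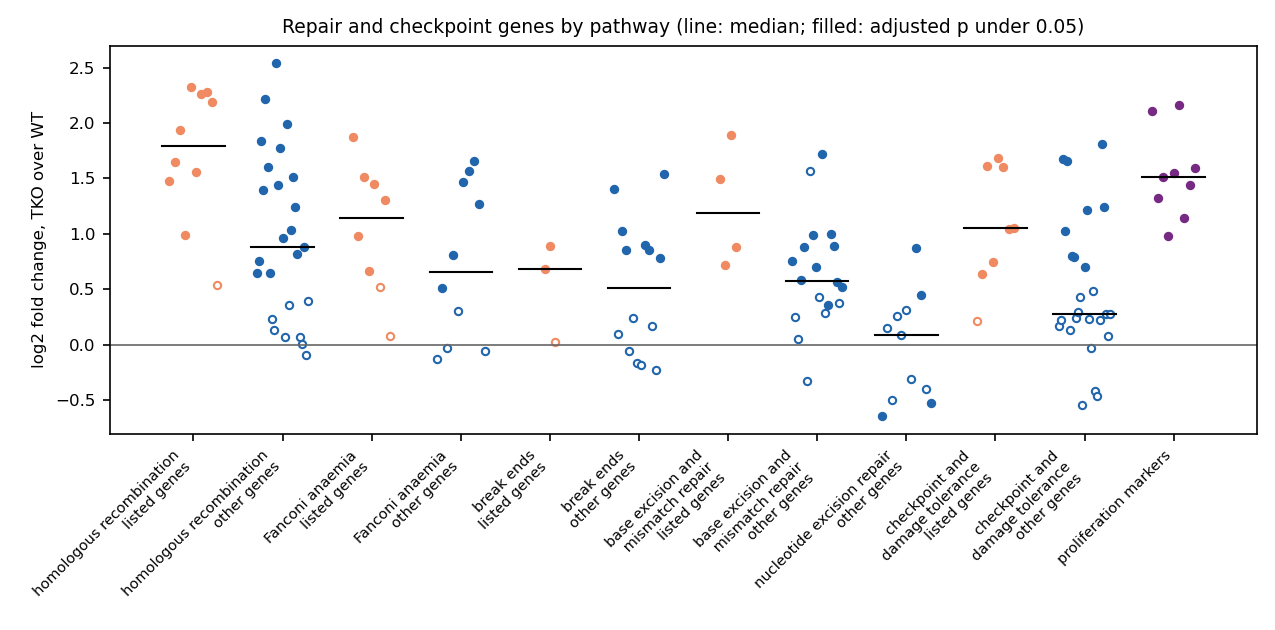
TKO over WT log2 differences of the 33 genes and of the 103 further genes, by pathway, with the 9 proliferation markers at the right. Each point is a gene and each line a median, with filled points for genes that passed the test. The homologous recombination genes have a median of 1.79 among the 33 and of 0.88 among the further genes. The nucleotide excision repair genes, all of them further genes, have a median of 0.09.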

How the data were processed

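Total RNA (100 ng) from 12 MEF samples was labelled and hybridised to 1-colour Affymetrix MOE430 2.0 arrays. The authors deposited log2 values, which they had corrected for background, normalised and summarised per probe set with RMA in Partek 6.5. The values ran from 2.18 to 14.92, the array medians from 5.34 to 5.41, and no detection calls were used. Arrays have no read depth, and 3 per group limit the precision. Groups came from the sample titles. Of 45101 probe sets, 64 manufacturer controls were left out. Probe sets with 1 symbol (34945) named genes, and those with several (932) or none (9160) named none.

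All 12 arrays entered 1 limma fit (version 3.58.1, R 4.3.3; lmFit and eBayes, 8 residual degrees of freedom, no block) with 4 contrasts, with the Benjamini-Hochberg adjustment taken over 45037 probe sets. The script was tested on simulated data. The genes and the wider pathway lists were chosen with earlier results of these data known. Every listed gene was named, and from each wider list up to 3 called, non-overlapping genes with the largest TKO over WT difference. A fold against a group at background was computed against 5.13 and given as a lower bound. Symbols come from an older platform annotation, and 2 of the 35 genes and 9 of the 112 further ones were not analysed here. Alternatives were a 2-fold minimum, an intensity trend, the 1-way ANOVA of the methods, a block for replicate number, weights for arrays, a fit on only the groups compared, median centring, cyclic loess, a background filter, the mean of all probe sets, suffix-free probe sets, and leaving out each array. Sequences are from RefSeq (GRCm38.p6).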

Additional observations from a re-analysis of the deposited data

Results flagged for a closer look

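The effects of the TKO and Rb1KO genotypes, each set against the same WT arrays, were tested against each other through the direct comparison of TKO with Rb1KO, and 3 of the 33 genes passed, beside 9.55% of all genes. Chek2 differed by 0.71 (adjusted p = 0.0141), Fancc by 0.43 (adjusted p = 0.0187) and Ung by -0.55 (adjusted p = 0.0249), where a positive value is higher in TKO. Each call was lost in at least 1 of the fits that leave out a single array. With 3 arrays per group, single arrays were not tested as outliers.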

How the results depend on the processing

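With a 2-fold minimum 19 of the 28 genes higher in TKO than in WT were called, and 20 of the 27 higher in Rb1KO. Under the other alternatives that could read the gene, 25 of the 28 (not Atr, Fanca or Fancc) and 24 of the 27 (not Fanca, Fancm or Wee1) kept their call. None of the 3 calls between TKO and Rb1KO, nor that of Bard1 in TKO-Ras over TKO, held throughout. For TKO over Rb1KO, where 2 were higher and 1 lower, the count higher was 0 with a 2-fold minimum and 1 with the mean of all probe sets. The count lower was 0 with the 2-fold minimum. It was also 0 with suffix-free probe sets, which read 29 genes and could not read Ung, whose only probe set carries a suffix. It was 2 with array weights, the replicate block, the background filter and the mean of all probe sets. For TKO-Ras over TKO, where 1 was higher and 0 lower, the count higher was 0 with the 2-fold minimum, the ANOVA and median centring, 3 with array weights, and 2 with cyclic loess, the background filter and the mean of all probe sets, which also gave 1 lower. That mean moved the median of TKO over WT to 0.93. Some genes named from the wider lists kept an adjusted p under 0.05 in TKO over WT, but with smaller differences. Their lowest values across the alternatives were 0.34 for Msh3, 0.76 for Xrcc6, 0.80 for Ube2t, 0.83 for Fanci and 0.89 for Fancf. Fancm in TKO over WT was -0.021 with array weights, and between -0.039 and 0.15 without 1 array. Xrcc5 was -0.062 with cyclic loess, and between -0.083 and 0.20 without 1 array. Neither passed the test in any of these fits. Without 1 array, 26 to 29 genes were higher in TKO than in WT and 25 to 27 in Rb1KO, with 0 lower. The medians were 1.13 to 1.40 and 0.996 to 1.22. For TKO over Rb1KO 0 to 2 were higher and 0 to 1 lower, and for TKO-Ras over TKO 0 to 1 were higher and 0 to 1 lower. The replicate numbers were not taken as pairs in the main fit. The deviations of same-numbered arrays correlated at -0.21 to 0.31 over 18 pairs of groups' arrays, over 0.1 in 8 of them. Of the 12 arrays, 7 correlated best with their own number. Whether arrays of like number belong together was not tested. With the replicate block 28 genes were higher in TKO than in WT and 27 in Rb1KO, Xrcc3 passed in TKO over WT (adjusted p = 0.0428) and Atr did not (adjusted p = 0.0583). Nbn then passed in TKO over Rb1KO (adjusted p = 0.0491), and in TKO-Ras over TKO (adjusted p = 0.0479) in place of Bard1 (adjusted p = 0.0515). Where a call moved, the cause was not tested. Signals near background, as those of Bard1 in WT, give only bounds. If background were set at the 99th percentile, 4 of the 33 genes, Bard1, Rad54b, Fancg and Brip1, would lie at it in WT. The TKO over WT bound of Bard1 would then be at least 1.30-fold, with Rad54b and Brip1 as bounds of at least 3.35-fold and 2.83-fold.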
